A study of Homo sapiens with 14 samples.

Results

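The response of LNCaP cells to Roscovitine was measured by comparing cells treated with the compound with cells that received the solvent DMSO. LNCaP is a human prostate cancer line that expresses the androgen receptor and has the gene expression of luminal prostate epithelium. The comparison uses the 2 arrays of Roscovitine-treated cells and the 2 arrays of DMSO-treated cells among the 14 Affymetrix arrays of the series, and covers 19775 genes, each read by 1 probe set that carries a single gene symbol. Roscovitine was given at 10 uM for 24 h and TSA (trichostatin A, which inhibits histone deacetylases, also 2 arrays) at 5 uM for 24 h, and the control was 0.1% DMSO for 24 h, all in untransfected cells. The other 4 groups, of 2 arrays each, were LNCaP cells transfected for 60 h with si-EZH2, with si-EZH2 plus an RNAi-resistant EZH2 plasmid of wild-type or T350A mutant sequence, or with si-Control. They enter here only through the shared estimate of the spread between arrays and, for the T350A add-back, through a comparison of replicates. The labels name 1 dose and 1 time for each drug, do not say whether Roscovitine-treated medium also held DMSO, and leave unsaid whether the replicates were grown apart. The tests therefore weigh differences against a spread between arrays that may be technical.

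Roscovitine is a purine analogue that competes with ATP in cyclin-dependent kinases (CDKs) and is known to inhibit CDK1, CDK2, CDK5, CDK7 and CDK9. CDK1 and CDK2 drive the cell cycle, CDK7 and CDK9 phosphorylate the C-terminal domain of RNA polymerase II, and CDK9 with its cyclin T forms P-TEFb, the factor that releases paused polymerase into elongation. HEXIM1 binds P-TEFb together with the 7SK small RNA and holds it inactive, and CDK1 and CDK2 are also known to phosphorylate EZH2, the histone methyltransferase of the Polycomb complex PRC2.

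The expression of the line's own genes did not separate the groups. Of 12 luminal prostate markers 10 were tested and none passed, and their summed signal was 53553 and 59342 in Roscovitine-treated cells, against 52219 and 54050 in DMSO-treated cells. KLK3, which encodes prostate-specific antigen, read 9889 and 11539 with Roscovitine, against 10165 and 10368 with DMSO. Markers of other prostate lines (8 tested), leukocytes (6) and fibroblasts or endothelium (8) also had no called gene. The summed signal of the other prostate line markers was 833 to 852 with Roscovitine and 875 to 923 with DMSO. That of the leukocyte markers was 444 to 478 with Roscovitine and 420.2 to 420.7 with DMSO, and that of the fibroblast and endothelial markers 2385 to 3039 with Roscovitine and 2483 to 2522 with DMSO. Of the leukocyte markers, 2 stood at the lowest value of 1 on each Roscovitine array, against 0 and 1 on the DMSO arrays.

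Most of the genes that changed were lower with Roscovitine. A gene was called when its Benjamini-Hochberg adjusted p over all 19775 genes was under 0.05 in limma's moderated test on log2(signal + 16), with the group means of all 14 arrays in 1 model. On this rule 438 genes fell (2.21% of the genes tested) and 111 rose (0.561%), which is 2.78% in either direction. The changes were small: 20 of the falls and 4 of the rises exceeded 1 on the log2 scale, the median called fall was -0.52 and the median called rise 0.51, while the median over all genes was 0.0006. The Roscovitine and DMSO arrays of every called gene did not overlap, as was also so, upward or downward, for 21.4% and 25.2% of all genes. Before adjustment, 3102 genes had a p under 0.05. After quantile normalization 250 genes rose and 463 fell, so that rises made up 35.1% of calls in place of 20.2%. Roscovitine replicate 2 stood apart from replicate 1 in a set of genes, in a pattern it shared with 1 array of the T350A add-back (described with the replicates at the end), and the counts are therefore given with and without it. The number of calls depended strongly on the arrays used. It was 240 and 83 without Roscovitine replicate 1 or 2, 34 and 21 without DMSO replicate 1 or 2, 325 without either si-Control array, 341 without either si-EZH2 array, 1 in a model of the 6 drug experiment arrays alone and 0 in a model of the 4 arrays compared (2879 genes with an unadjusted p under 0.05). Of the 549 called genes, 19 (16 lower and 3 higher) were called in all 14 fits that each left out 1 array, and these are marked below as called in every left-out fit. Of the 70 called genes named in the report and after it, 46 and 29 were still called without Roscovitine replicate 1 or 2, and 20 and 14 without DMSO replicate 1 or 2. Further probe sets exist for 46 of the 70, and in 18 of these at least 1 of them, often but not always dim, had the opposite sign. In 36 of the 46, at least 1 further probe set gave under 1/2 of the reported difference, opposite signs included.

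Among the kinases that the compound inhibits and the proteins that govern P-TEFb, HEXIM1 fell the most, and it had the largest fall of all called genes. Its signal was 392 and 387 in Roscovitine-treated cells, against 1365 and 1333 in DMSO-treated cells. Both Roscovitine arrays lay far below both DMSO arrays, and each pair of replicates was close. The difference was -1.75 ± 0.07 on the log2 scale (SE; adjusted p = 2.34e-05), it was called in every left-out fit, and HEXIM1 was the 1 gene called in the model of the 6 drug experiment arrays. The other 2 HEXIM1 probe sets did not move in this way, with differences of -0.22 and 0.16, and the mean over its 3 probe sets gave -0.60 (adjusted p = 0.0341). CDK9, the kinase of P-TEFb, read 979 and 1077 with Roscovitine, against 753 and 833 with DMSO, and rose by 0.37 ± 0.08 (adjusted p = 0.0497). Its further probe sets gave 0.05 and 0.34. The call sat at the threshold: it was kept in 2 of the 14 left-out fits and lost, for example, without either DMSO array (adjusted p = 0.326 and 0.145). MEPCE, which caps the 7SK RNA, fell to 942 and 1031 with Roscovitine, against 1349.9 and 1389 with DMSO (-0.47 ± 0.09, adjusted p = 0.0288). EAF2, a partner of the ELL elongation factors, fell by 0.42 on the log2 scale (adjusted p = 0.0346). Over the 20 tested genes of this list 1 rose and 3 fell (beside 0.561% and 2.21% of all genes), with a median of -0.06, beside 0.0006 over all genes. Of the list 0 rose and 2 or 1 fell without Roscovitine replicate 1 or 2, and 0 rose and 1 fell without either DMSO array.

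POLR2A, which encodes the largest subunit of RNA polymerase II, read 1057 and 1292 with Roscovitine, against 1832 and 1685 with DMSO. Its arrays did not overlap between the groups, and the difference was -0.58 ± 0.11 (adjusted p = 0.0270). The 2 other POLR2A probe sets gave -0.13 and 0.05, and none of the other 19 tested polymerase subunits and CTD kinases passed (list median 0.05). POLR2A is 5.0% of that list, beside 2.21% of all genes lower. Of 17 CDK genes CDK9 alone passed (5.88% higher, beside 0.561% of all genes). CDK1 read 6850 and 6919 with Roscovitine, against 7934 and 7846 with DMSO, a difference of -0.20 ± 0.07 (adjusted p = 0.227). The differences of the other known targets were 0.11 ± 0.09 for CDK2, 0.09 ± 0.09 for CDK5 and -0.10 ± 0.08 for CDK7, with adjusted p of 0.597, 0.676 and 0.602. The 95% intervals of CDK1 (-0.36 to -0.03) and CDK5 (-0.12 to 0.31) bound the change in the mRNA of these 2 kinases.

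**Figure D1:**
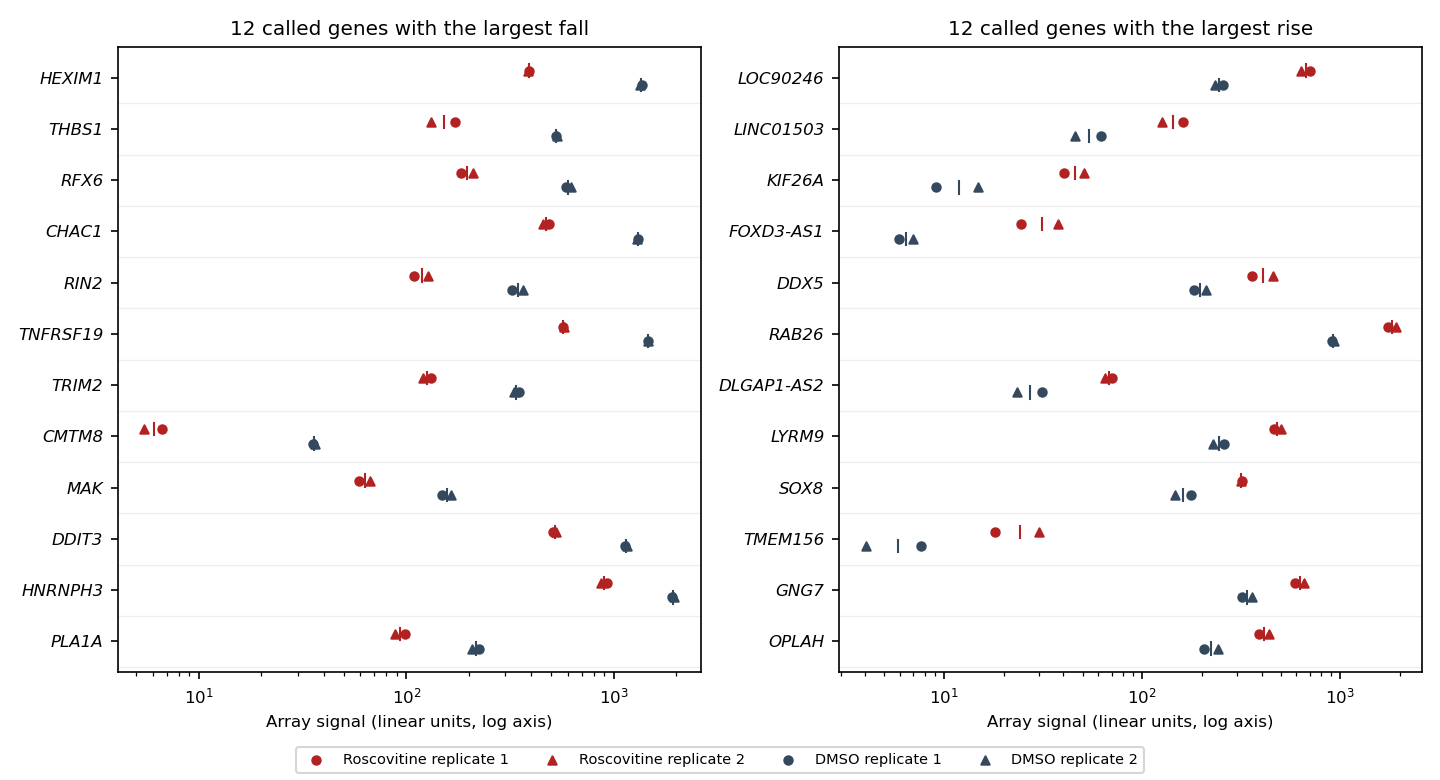
Signals on each array (log axis, linear array units) of the 12 called genes with the largest fall (left) and the 12 with the largest rise (right); red marks are Roscovitine arrays, dark marks DMSO arrays, circles and triangles replicates 1 and 2, and short bars the means. The red and dark marks do not overlap for any gene, which was a condition of the choice. Over all genes the arrays did not overlap, upward or downward, in 21.4% and 25.2%. HEXIM1 stands at 392 and 387 against 1365 and 1333.

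Genes of G2 and mitosis were the listed group with the most called genes. Of the 30 listed genes, all tested, 18 fell and 0 rose (the background is 2.21% of genes lower). The median difference was -0.67 beside 0.0006 over all genes, and all 30 were below 0, 29 of them with an unadjusted p under 0.05. Of all 19775 genes, 9813 were below 0, and 1991 were lower with an unadjusted p under 0.05. The summed signal of the list was 49100 and 51856 in Roscovitine-treated cells, against 73869 and 75705 in DMSO-treated cells. In RNA from whole cultures, fewer cells in these phases and less of these mRNAs per cell cannot be told apart.

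The kinetochore motor CENPE, which carries chromosomes to the spindle equator, fell the most. It read 315 and 331 with Roscovitine, against 666 and 697 with DMSO (-1.04 ± 0.09, adjusted p = 0.00261). TTK, the kinase that starts the spindle checkpoint, read 888 and 858 with Roscovitine, against 1658 and 1642 with DMSO (-0.91 ± 0.09, adjusted p = 0.00301). BUB1, another checkpoint kinase, read 595 and 576 with Roscovitine, against 1028 and 987 with DMSO (-0.77 ± 0.08, adjusted p = 0.00342). These 3 genes were called in every left-out fit, and in each the lower DMSO array stood well above the higher Roscovitine array. DLGAP5, a microtubule-binding protein of the spindle, read 1339 and 1381 with Roscovitine, against 2316 and 2497 with DMSO (-0.82 ± 0.08, adjusted p = 0.00358). The mitotic cyclins changed with them. CCNB1, the activator of CDK1, fell to 3406 and 3193 with Roscovitine, against 5314 and 5397 with DMSO (-0.70 ± 0.12, adjusted p = 0.0197), CCNB2 fell by 0.69 (adjusted p = 0.0105), and CCNA2 fell by 0.62 on the log2 scale (adjusted p = 0.0243). For CCNB2 the 2 other probe sets gave smaller differences, -0.19 and -0.14.

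**Figure D2:**
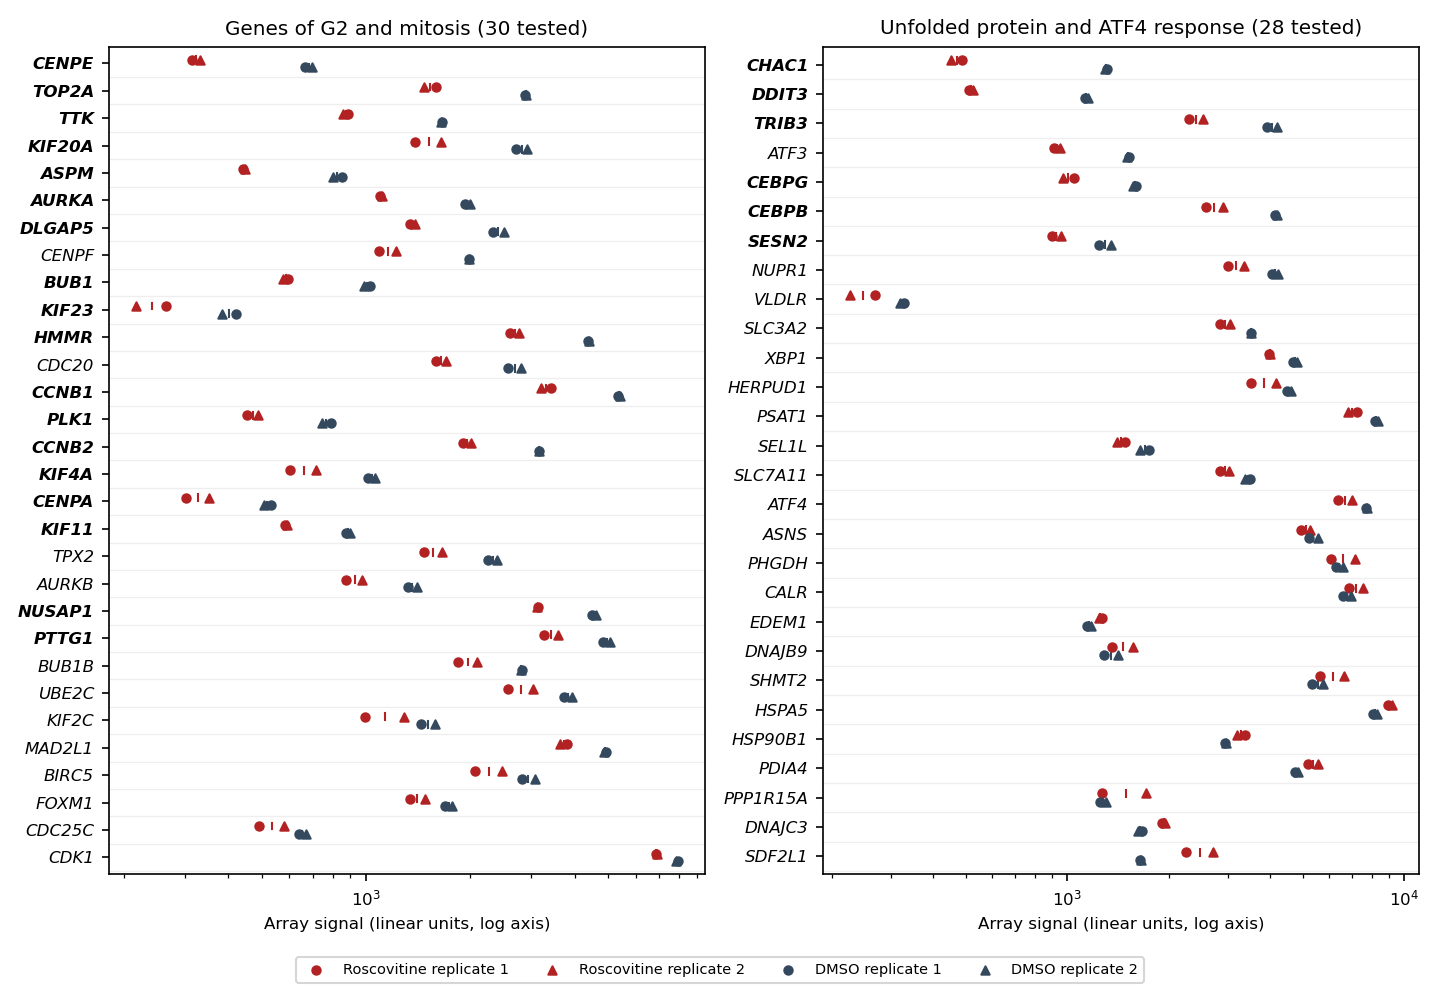
Signals on each array (log axis, linear array units) of every tested gene of the G2 and mitosis list (left, 30 genes) and of the unfolded protein and ATF4 response list (right, 28 genes), ordered by the log2 difference; red is Roscovitine, dark is DMSO, circles and triangles are replicates 1 and 2, short bars are means, and bold names passed the test. In the left panel every mean is lower with Roscovitine, while the right panel runs from CHAC1, far lower, to chaperone genes whose marks lie above DMSO without passing.

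Promoter letters of the mitosis genes are shown because their transcription is known to peak together through a pair of elements, the cell cycle genes homology region (core TTTGAA) and the CCAAT box bound by NF-Y. The windows run from 250 bases before to 50 bases after the RefSeq start, in build GRCh38.p14, and are printed 5′ to 3′ on the gene's strand, with capitals marking TTTGAA and CCAAT on either strand. DLGAP5 lies at chr14:55191536-55191835 (minus strand) and ASPM, a spindle pole protein that read 439.6 and 446 with Roscovitine against 848 and 802 with DMSO (-0.87 ± 0.10, adjusted p = 0.00525), at chr1:197146620-197146919 (minus strand). ASPM was chosen for print after its values were seen. Both windows were picked in order of p among the mitosis genes that fell, and only if they held TTTGAA. CENPE, TTK and BUB1 had smaller p and were passed over, so the windows are not a sample of the genes that fell.
DLGAP5: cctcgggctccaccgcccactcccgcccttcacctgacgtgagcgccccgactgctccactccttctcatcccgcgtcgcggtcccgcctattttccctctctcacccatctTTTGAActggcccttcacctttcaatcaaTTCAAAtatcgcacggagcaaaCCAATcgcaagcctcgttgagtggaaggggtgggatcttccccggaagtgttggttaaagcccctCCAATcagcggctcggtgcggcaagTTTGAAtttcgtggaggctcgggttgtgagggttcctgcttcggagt
ASPM: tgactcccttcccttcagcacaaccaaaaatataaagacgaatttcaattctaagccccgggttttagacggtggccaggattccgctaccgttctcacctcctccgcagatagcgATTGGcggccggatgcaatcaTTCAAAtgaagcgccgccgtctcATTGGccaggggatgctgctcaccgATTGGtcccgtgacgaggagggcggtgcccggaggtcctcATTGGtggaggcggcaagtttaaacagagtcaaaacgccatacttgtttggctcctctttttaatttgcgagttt
TTTGAA, in either orientation, was in the window of 17 of the 24 mitosis genes with a window (70.8%), of 11 of the 16 that fell and have one (68.8%), and of 15.6% of 15384 tested genes with a window. CCAAT was in 21 of the 24 windows (87.5%) and in 41.7% of all. Among 28 genes of S phase and DNA replication, 1 window held TTTGAA (3.57%) and 18 held CCAAT (64.3%). These are matches of letters in fixed windows, not measured binding.

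Genes of S phase did not pass the test. Of 33 tested genes for DNA replication 0 rose and 0 fell, with a median of -0.03. At an unadjusted p under 0.05, 3 were lower and 2 higher, beside 1991 lower and 1111 higher of all 19775 genes. The summed signal of the list was 73076 and 77714 with Roscovitine, against 76971 and 78175 with DMSO. Whether the mitosis list differs from the S phase list was not tested. CCNE1, the cyclin that drives entry into S phase with CDK2, rose to 1108 and 1332 with Roscovitine, against 782 and 822 with DMSO (0.59 ± 0.10, adjusted p = 0.0199). A second CCNE1 probe set gave -0.11, and the mean of both gave 0.24 (adjusted p = 0.214). Its relative CCNE2 read 1611 and 1419 with Roscovitine, against 1309 and 1170.2 with DMSO, and did not pass (adjusted p = 0.190). Of the 10 cell cycle cyclins 1 rose and 3 fell, and 0 were called without either DMSO array or without Roscovitine replicate 2. In the fit of all arrays 0.561% of all genes rose and 2.21% fell. The cyclins that fell were CCNB1, CCNB2 and CCNA2, given above, and CCNB1 and CCNB2 are also counted in the G2 and mitosis list. CDKN1A, the p53-induced CDK inhibitor p21, read 3564 and 4070 with Roscovitine, against 2840.2 and 3082 with DMSO, and missed the threshold (0.36 ± 0.08, adjusted p = 0.0578). None of 7 CDK inhibitor genes passed. Of 22 p53 targets 0 rose and 2 fell (9.09% lower, beside 2.21% of all genes), with a median of -0.01. Those 2 were SESN2, a stress-induced inhibitor of mTORC1, and PMAIP1, the BH3-only protein NOXA, which read 974 and 1127 with Roscovitine, against 1573 and 1659 with DMSO (-0.62 ± 0.13, adjusted p = 0.0380). In the BCL2 family (16 tested) PMAIP1 fell and BAD, also a BH3-only protein, rose to 989.8 and 1165 with Roscovitine, against 718 and 779.5 with DMSO (adjusted p = 0.0206). Each is 6.25% of that list, beside 2.21% of all genes lower and 0.561% higher. Replication-dependent histone genes (36 tested) had 1 called rise, H2AC6 at 2522 and 2484 with Roscovitine against 1607 and 1636 with DMSO (0.62 ± 0.07, adjusted p = 0.00384). They also had 1 called fall, H4C11 (-0.84 ± 0.18, adjusted p = 0.0428). Each is 2.78% of the histone list, beside 0.561% of all genes higher and 2.21% lower.

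The number of mitosis genes that fell depended on the arrays used. It was 7 and 5 of 30 without Roscovitine replicate 1 or 2, 4 and 3 without DMSO replicate 1 or 2, and 0 with only the 6 drug experiment arrays, and the list median stayed between -0.60 and -0.69 in these fits.

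The unfolded protein response and the response to lack of amino acids share ATF4, a transcription factor translated when eIF2α is phosphorylated. Of 28 genes of the unfolded protein and ATF4 response, all tested, 6 fell and 0 rose (21.4%, beside 2.21% of all genes, fell), and the median was -0.23. DDIT3, which encodes the transcription factor CHOP, read 509.7 and 526 with Roscovitine, against 1126 and 1155 with DMSO (-1.11 ± 0.08, adjusted p = 0.000578), and was called in every left-out fit. CHAC1, a glutathione-degrading enzyme induced by ATF4 and CHOP, read 486 and 454 with Roscovitine, against 1313 and 1296 with DMSO (-1.44 ± 0.15, adjusted p = 0.00372). For both genes the DMSO arrays were more than 2 times the Roscovitine arrays, with no overlap. TRIB3, a pseudokinase that CHOP induces, fell to 2307 and 2527 with Roscovitine, against 3906 and 4187 with DMSO (-0.74 ± 0.12, adjusted p = 0.0159). CEBPB and CEBPG, bZIP proteins that pair with ATF4, fell by 0.61 and by 0.64 on the log2 scale (adjusted p = 0.0112 and 0.0179), and SESN2 fell by 0.47 (adjusted p = 0.0399). A second TRIB3 probe set read 1575 and 1926 with Roscovitine, against 1809.5 and 1894 with DMSO, a difference of -0.09. A second CEBPG probe set gave -0.30. The rest of the list did not pass, other known ATF4 targets included. ATF4 itself differed by -0.21, and its targets SLC7A11, a cystine transporter, by -0.22, ASNS, the asparagine synthetase, by -0.08, the serine synthesis enzyme PHGDH by 0.03, SHMT2, which makes glycine, by 0.14, and PPP1R15A, which directs removal of the eIF2α phosphate, by 0.21 on the log2 scale (adjusted p between 0.175 and 0.909). The chaperone HSPA5 (BiP), the standard marker of the other branches of the unfolded protein response, read 8950.4 and 9207 with Roscovitine, against 8092 and 8312 with DMSO, and did not pass (0.15 ± 0.07, adjusted p = 0.340). HSP90B1, an endoplasmic reticulum chaperone, also did not pass (0.15 ± 0.07, adjusted p = 0.318). A second, dimmer HSPA5 probe set read 512 and 593 with Roscovitine, against 384 and 366 with DMSO. Its difference was 0.54, with an adjusted p of 0.0321 in the limma fit of every probe set with 1 symbol. The ATF4 list rests on few arrays: 2 and 3 of its genes fell without Roscovitine replicate 1 or 2, 2 and 1 without DMSO replicate 1 or 2, and 0 with only the 6 drug experiment arrays.

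The windows of CHAC1 and CEBPG are shown because both fell and hold the core of the composite element that ATF4 binds with C/EBP proteins (TGATGNAA, either strand, in capitals). They lie at chr15:40953221-40953520 (plus strand) and chr19:33373863-33374162 (plus strand) of GRCh38.p14, from RefSeq, printed as above.
CHAC1: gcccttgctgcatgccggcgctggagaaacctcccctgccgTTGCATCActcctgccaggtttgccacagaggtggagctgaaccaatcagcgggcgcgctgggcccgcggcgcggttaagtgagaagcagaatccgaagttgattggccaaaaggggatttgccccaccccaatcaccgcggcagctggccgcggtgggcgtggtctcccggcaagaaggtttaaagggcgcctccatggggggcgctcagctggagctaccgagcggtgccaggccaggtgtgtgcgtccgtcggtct
CEBPG: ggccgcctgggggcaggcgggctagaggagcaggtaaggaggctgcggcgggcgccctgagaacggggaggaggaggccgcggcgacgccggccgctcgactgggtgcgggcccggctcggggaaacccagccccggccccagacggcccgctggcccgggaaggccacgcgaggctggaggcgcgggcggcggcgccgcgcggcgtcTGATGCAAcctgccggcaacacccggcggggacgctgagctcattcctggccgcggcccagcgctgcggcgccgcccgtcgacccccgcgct
Of the 25 genes of this list with a window, 6 held TGATGNAA (24.0%), among them 2 of the 6 that fell (33.3%), against 3.61% of all 15384 windows.

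Among short-lived transcripts, whose levels follow the rate of transcription closely, 4 of 36 tested fell and 0 rose (11.1% lower, beside 2.21% of all genes), with a median of -0.14. BTG1, an antiproliferative gene, read 2998 and 2855 with Roscovitine, against 5144 and 5098 with DMSO (-0.80 ± 0.09, adjusted p = 0.00384). CITED2, a coactivator-binding protein, fell by 0.75, ID2, an inhibitor of bHLH factors, fell by 0.50, and the transcription factor SOX4 fell by 0.49 (adjusted p = 0.0107, 0.00999 and 0.0277). All 4 fell in the fit of all arrays, but 0 were called without either DMSO array, 2 without Roscovitine replicate 1 and 1 without Roscovitine replicate 2. MYC and MCL1, often used as markers of CDK9 inhibition, are named for that reason outside the naming rule. MYC read 5658 and 6343 with Roscovitine, against 6239.9 and 6067 with DMSO (-0.04 ± 0.26, adjusted p = 0.972). MCL1, an anti-apoptotic BCL2 relative, read 4013 and 4652 with Roscovitine, against 3792 and 3919 with DMSO (0.16 ± 0.09, adjusted p = 0.427). Neither the MYC network (12 tested) nor ribosome biogenesis (23 tested) had a called gene.

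Some genes of RNA-binding proteins fell. HNRNPH3, which binds G-rich RNA and regulates splicing, read 924 and 871 with Roscovitine, against 1904 and 1952 with DMSO (-1.09 ± 0.08, adjusted p = 0.000770), and its other 3 probe sets gave -1.19 to -1.08. The difference was close in size over all 4 probe sets, and it was called in every left-out fit. Of the 20 tested genes for heterogeneous nuclear ribonucleoproteins, a family chosen after the values were seen, 5 fell and 0 rose (2.21% of all genes fell; median -0.14): HNRNPH3, HNRNPDL, HNRNPH1, HNRNPD and HNRNPA2B1. The number that fell was 4 and 3 without Roscovitine replicate 1 or 2, and 1 without either DMSO array. HNRNPH1 read 5111 and 4912 with Roscovitine, against 7489 and 7234 with DMSO (-0.55 ± 0.07, adjusted p = 0.00896). Its 3 further probe sets ranged from -1.25 to -0.02, and the 5 of HNRNPDL from -0.87 to -0.11. The 8 further probe sets of HNRNPD ranged from -0.79 to 0.58, with 2 above 0. Those of HNRNPA2B1 (3) ranged from -0.19 to 0.18, all under 1/2 of its reported difference of -0.42. In the list of CLK kinases and SR splicing factors 2 of 20 fell and 0 rose (10.0% lower, beside 2.21% of all genes; median -0.16), and 0 were called when any 1 of the 4 arrays compared was left out. CLK1, a kinase of SR proteins, read 319.8 and 291 with Roscovitine, against 478 and 481 with DMSO (-0.63 ± 0.14, adjusted p = 0.0472), and SRSF3 fell by 0.27 (adjusted p = 0.0472), although its 5 other probe sets ranged from -0.36 to 0.33. The calls of CLK1 and SRSF3 were each kept in 4 of the 14 left-out fits.

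Of 24 tested androgen receptor targets 3 fell and 0 rose (12.5% lower, beside 2.21% of all genes), and the median was -0.19. TSC22D3 (GILZ), a target of steroid receptors, read 1285 and 1533 with Roscovitine, against 2843 and 2886 with DMSO (-1.02 ± 0.19, adjusted p = 0.0270). The transcription factor MAF read 185 and 198 with Roscovitine, against 383 and 383 with DMSO (-0.95 ± 0.12, adjusted p = 0.00725), and EAF2 is given above. For TSC22D3 and MAF no Roscovitine array reached a DMSO array, while a dimmer probe set of each gave a difference above 0 (0.22 and 0.25). KLK2 and TMPRSS2, also androgen-regulated, differed by -0.24 ± 0.21 and 0.13 ± 0.22 (adjusted p = 0.623 and 0.815). Called members of this list were 0 without either DMSO array, 2 without Roscovitine replicate 1 and 1 without Roscovitine replicate 2.

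EZH2 itself was lower with Roscovitine. It read 849 and 742 in Roscovitine-treated cells, against 1099 and 1085 in DMSO-treated cells, with no overlap (-0.45 ± 0.07, adjusted p = 0.0179). EED, the PRC2 subunit that reads methylated histone H3, read 1003 and 1084 with Roscovitine, against 1305 and 1371 with DMSO (-0.35 ± 0.08, adjusted p = 0.0496). A second, dimmer EED probe set gave -0.04. SUZ12, the third core subunit, read 2608 and 2546 with Roscovitine, against 2982 and 2929 with DMSO, and did not pass (adjusted p = 0.129). Over the 11 PRC2 genes tested 0 rose and 2 fell (18.2% lower, beside 2.21% of all genes), with a median of 0.03. Genes that EZH2 is known to repress in cancer cells (21 tested, median -0.01) and HOX genes (25 tested, median -0.06) had 0 called rises and 0 called falls. At an unadjusted p under 0.05, 1 of the EZH2-repressed genes was higher and 5 were lower, and 0 HOX genes were either. Of all 19775 genes, 1111 were higher and 1991 lower at that threshold. The EZH2 call was lost without DMSO replicate 1 or 2 (adjusted p = 0.145 and 0.131) and without Roscovitine replicate 2 (adjusted p = 0.0966), and EED was called in 2 of 14 left-out fits.

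**Figure D3:**
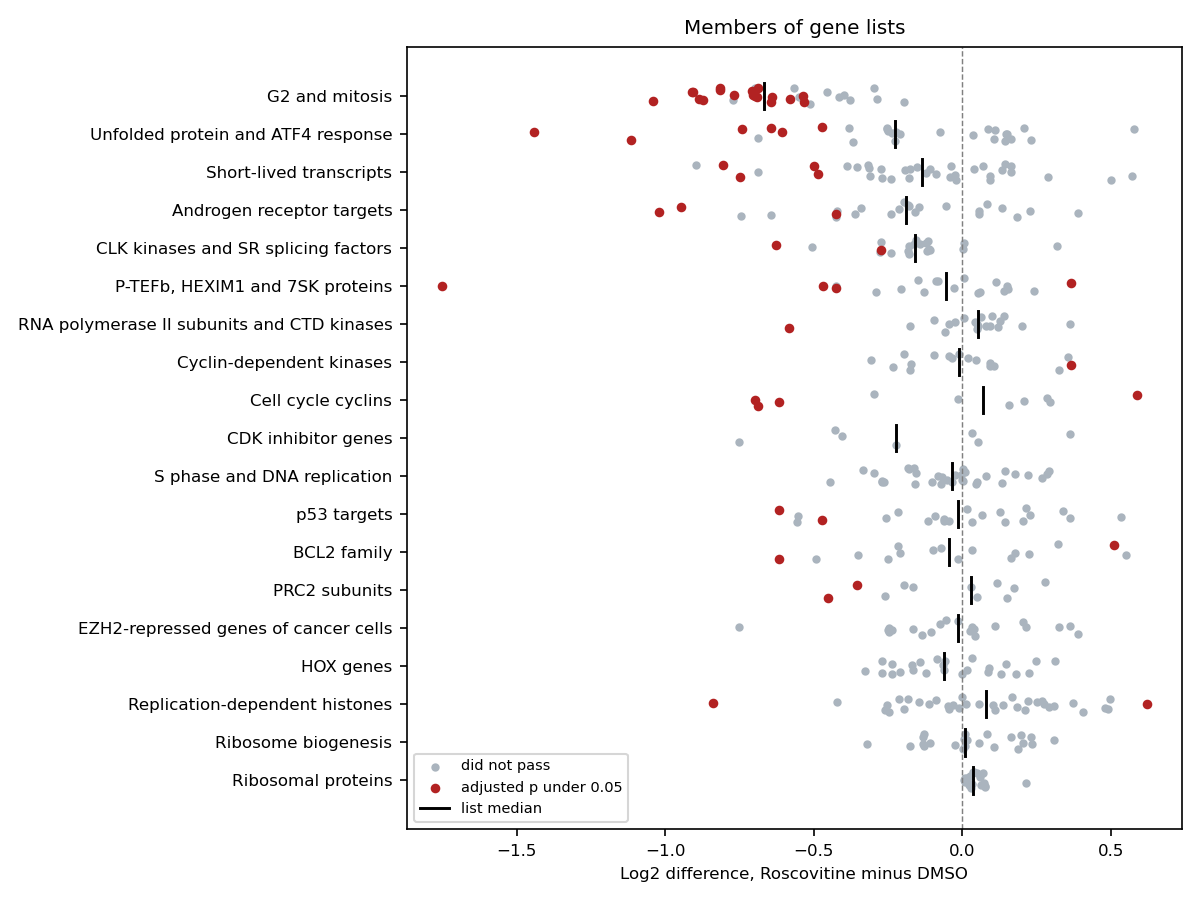
Log2 difference, Roscovitine minus DMSO, of each tested member of 19 gene lists; red points passed the test, grey points did not, and black bars are list medians. The G2 and mitosis list lies wholly below 0 with a median of -0.67, while the medians of the other lists shown lie between -0.23 and 0.08.

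The genes with the largest falls and rises outside these groups have varied functions. THBS1, a matrix glycoprotein that restrains angiogenesis, read 171 and 131 with Roscovitine, against 524 and 533 with DMSO (-1.71 ± 0.29, adjusted p = 0.0186). RFX6, a transcription factor known from pancreatic endocrine cells, read 184 and 209 with Roscovitine, against 589 and 618 with DMSO (-1.55 ± 0.08, adjusted p = 6.03e-05). TNFRSF19 (TROY), a receptor of the tumour necrosis factor family, read 567 and 575 with Roscovitine, against 1453 and 1454 with DMSO (-1.32 ± 0.07, adjusted p = 8.74e-05). The other 6 THBS1 probe sets ranged from -1.35 to 0.37, with 2 of them above 0. RFX6 has no further probe set with 1 symbol, and those of TNFRSF19 gave -1.03 and -0.68. All 3 genes had Roscovitine arrays far below the DMSO arrays, and RFX6 and TNFRSF19 were called in every left-out fit. The ubiquitin ligase TRIM2 and the RAB5 exchange factor RIN2 were also called in every left-out fit and fell by 1.32 and by 1.42 on the log2 scale (adjusted p = 0.000504 and 0.00143), although a second RIN2 probe set gave -0.01 and the other 5 of TRIM2 ranged from -1.42 to 0.20. MAK, a kinase of male germ cells, fell by 1.13, and PLA1A, a phospholipase for phosphatidylserine, fell by 1.09 on the log2 scale (adjusted p = 0.00896 and 0.00907). The second MAK probe set gave -0.21. CMTM8, a membrane protein of the MARVEL type, was dim in both groups, at 6.67 and 5.46 with Roscovitine and 35.4 and 36.3 with DMSO.

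Fewer genes rose. LOC90246, an uncharacterised locus, read 705 and 631 with Roscovitine, against 255 and 233 with DMSO (1.39 ± 0.13, adjusted p = 0.00281), and was the 1 gene among the 12 largest rises that was called in every left-out fit, beside 7 of the 12 largest falls. Its other probe set read 351 and 348 with Roscovitine, against 352 and 229 with DMSO. RAB26, a small GTPase of secretory vesicles, read 1742 and 1897 with Roscovitine, against 905 and 929 with DMSO (0.98 ± 0.13, adjusted p = 0.00918), and its second probe set gave 0.86. GNG7, a G protein gamma subunit, rose by 0.85, SOX8, a transcription factor, by 0.92, and OPLAH, the 5-oxoprolinase of the glutathione cycle, by 0.84 (adjusted p = 0.00772, 0.00878 and 0.0197). The mitochondrial LYR-motif gene LYRM9 read 460.2 and 501 with Roscovitine, against 257 and 228 with DMSO (0.94 ± 0.11, adjusted p = 0.00455). LINC01503 rose by 1.19 and DLGAP1-AS2 by 0.96, both long noncoding RNAs of low signal. KIF26A, FOXD3-AS1 and TMEM156 rose on low signals, with DMSO arrays between 4.02 and 14.7. Further probe sets gave -0.27 for TMEM156, 0.01 for DLGAP1-AS2, 0.34 for LYRM9, and -0.10 and 0.43 for GNG7. DDX5, an RNA helicase, read 357 and 459 with Roscovitine, against 183 and 210.3 with DMSO (0.99 ± 0.14, adjusted p = 0.0107), on its single probe set with 1 gene symbol. A far brighter probe set that the annotation assigns to DDX5 among several symbols read 8814 and 9001 with Roscovitine, against 9320 and 9422 with DMSO, a difference of -0.07, so the rise is that of 1 probe set.

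The genes that fell had a longer median span than those that rose, a difference that was not tested. The median span in RefSeq was 13.6 kb for the called rises, 39.5 kb for the called falls and 24.7 kb for all tested genes. Among genes with a mean signal of at least 100 the medians were 13.1, 39.2 and 28.4 kb. In 5 bins of these genes by span, 2.31% of the shortest fell and 1.19% rose, while 3.73% of the longest fell and 0.298% rose, with median differences of 0.04 and -0.05.

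Roscovitine and TSA were both compared with the same 2 DMSO arrays, so likeness between the drugs was not assessed from those differences, and the drugs were instead compared with each other, at different doses and for the same time. Between Roscovitine and TSA 4282 genes were higher with Roscovitine (21.7%) and 4232 lower (21.4%), 43.1% in all, so a call between the drugs is common. HEXIM1 read 392 and 387 with Roscovitine and 3026 and 2873 with TSA, against 1365 and 1333 with DMSO. It lay below DMSO with the one drug and above DMSO with the other, and Roscovitine minus TSA was -2.87 ± 0.07 (adjusted p = 7.32e-09). CMTM8 read 6.67 and 5.46 with Roscovitine and 768 and 781 with TSA, against 35.4 and 36.3 with DMSO. DDIT3 read 509.7 and 526 with Roscovitine and 1199 and 1207 with TSA, against 1126 and 1155 with DMSO, and Roscovitine minus TSA was -1.19 ± 0.08 (adjusted p = 1.66e-06). BUB1 read 595 and 576 with Roscovitine and 1332 and 1299 with TSA, against 1028 and 987 with DMSO, while CENPE and TTK were lower than DMSO with both drugs and lower with Roscovitine than with TSA (-0.55 ± 0.09 and -0.34 ± 0.09, adjusted p = 0.000947 and 0.0109). RAB26 read 1742 and 1897 with Roscovitine and 592 and 596 with TSA, against 905 and 929 with DMSO. RIN2 read 109 and 128 with Roscovitine and 36.1 and 29.7 with TSA, against 323 and 366 with DMSO, and so was lowest with TSA. KIF26A read 40.2 and 51.0 with Roscovitine and 508 and 518 with TSA, against 9.07 and 14.7 with DMSO. The largest falls were in part close in size between the drugs. For TNFRSF19, HNRNPH3 and CHAC1 Roscovitine minus TSA was 0.06 ± 0.07, 0.09 ± 0.08 and -0.18 ± 0.15 (adjusted p = 0.548, 0.414 and 0.399), which does not show that the drugs act alike. EZH2 read 849 and 742 with Roscovitine and 854 and 824 with TSA, against 1099 and 1085 with DMSO, and Roscovitine minus TSA was -0.08 ± 0.07 (adjusted p = 0.453).

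**Figure D4:**
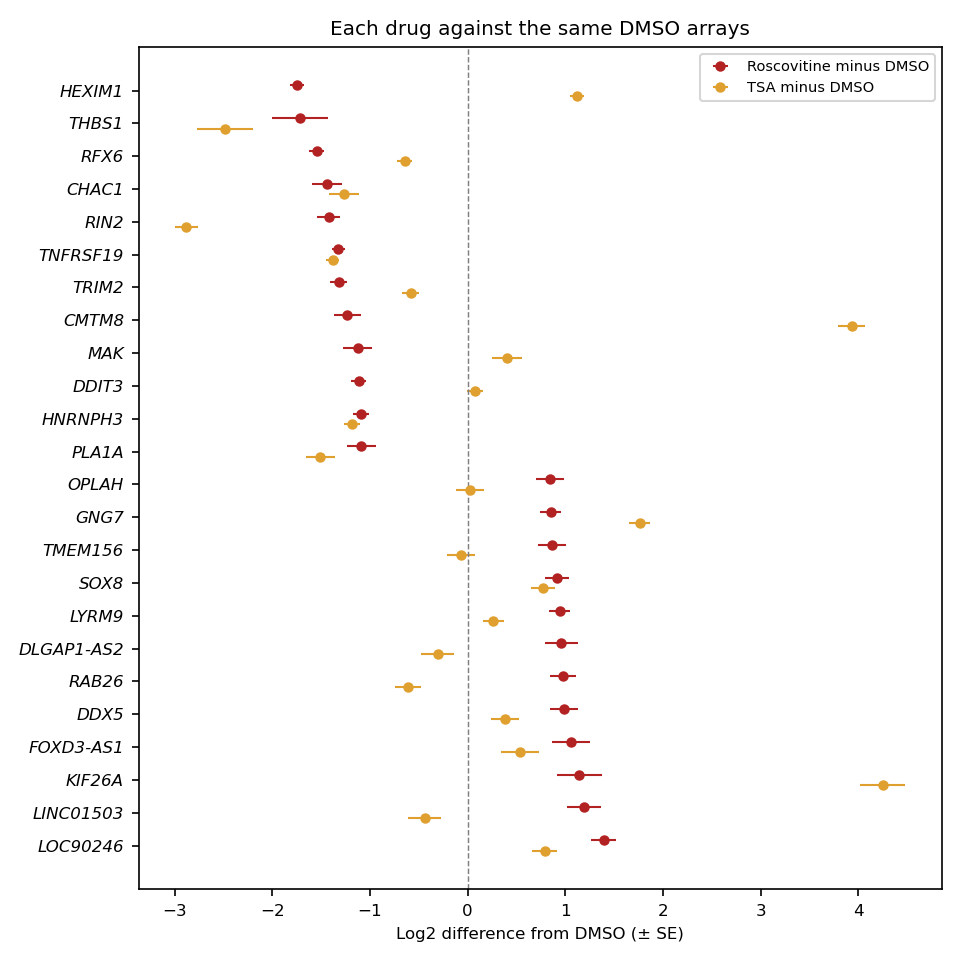
Log2 difference from DMSO (± SE, n = 2 arrays a group) with Roscovitine (red) and TSA (orange) for the 12 largest called falls and the 12 largest called rises with Roscovitine. The 2 drugs share their DMSO arrays, and the genes were chosen for Roscovitine; HEXIM1 stands at -1.75 with Roscovitine and 1.12 with TSA.

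The replicates of the Roscovitine group differed more from each other than those of most groups. Among 13211 genes with a mean signal of at least 100 over the 4 arrays, 107 differed by more than 1 on the log2 scale between the Roscovitine arrays (36 higher and 71 lower on replicate 2). LINC00928 read 2309 on Roscovitine replicate 1 and 2.39 on replicate 2, against 2628 and 2701 with DMSO. OGN, which encodes the proteoglycan osteoglycin, read 13.2 and 1812 with Roscovitine, against 9.89 and 12.02 with DMSO, and CGAS, the sensor of cytosolic DNA, read 6.87 and 1339 with Roscovitine, against 6.28 and 9.83 with DMSO. In each case Roscovitine replicate 1 lay with the DMSO arrays and replicate 2 apart from them.

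A like difference was present in a group that received no Roscovitine. The replicate 2 minus replicate 1 differences of the Roscovitine group and of the T350A add-back group had a correlation of r = 0.702 over 13424 genes (a description, since genes of 1 array share its errors), while the other pairs of the 21 pairs of groups lay between -0.27 and 0.28. Of the 107 genes, 94 differed in the same direction by more than 0.5 in the T350A add-back. LINC00928 read 3380 and 18.1 there, TNP2, a sperm nuclear protein gene, read 2926 and 333 there and 2426 and 387 with Roscovitine, and VAMP2, a vesicle fusion protein gene, read 443 and 1454 there and 547 and 1463 with Roscovitine. The other genes with the largest falls of replicate 2, SNAI2, ATP12A, SAMD4A, FBXO17, LOC105376166 and LINC00520, differed by -2.67 to -2.15 in the Roscovitine group, and the rises PARTICL, SOHLH2, LINC01348, RAMP3 and SLIT3-AS1 by 1.37 to 2.13. OGN, CGAS and LINC01348 did not follow the pattern, with differences of 0.10, -0.52 and -0.92 in the T350A add-back. None of the 107 genes was called between Roscovitine and DMSO. A large difference between replicates also raises a gene's error and so keeps it from being called, so this says nothing of how far the pattern reaches the calls. With both deviating arrays left out 18 genes rose and 107 fell, and with a term shared by them 545 genes were called.

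**Figure D5:**
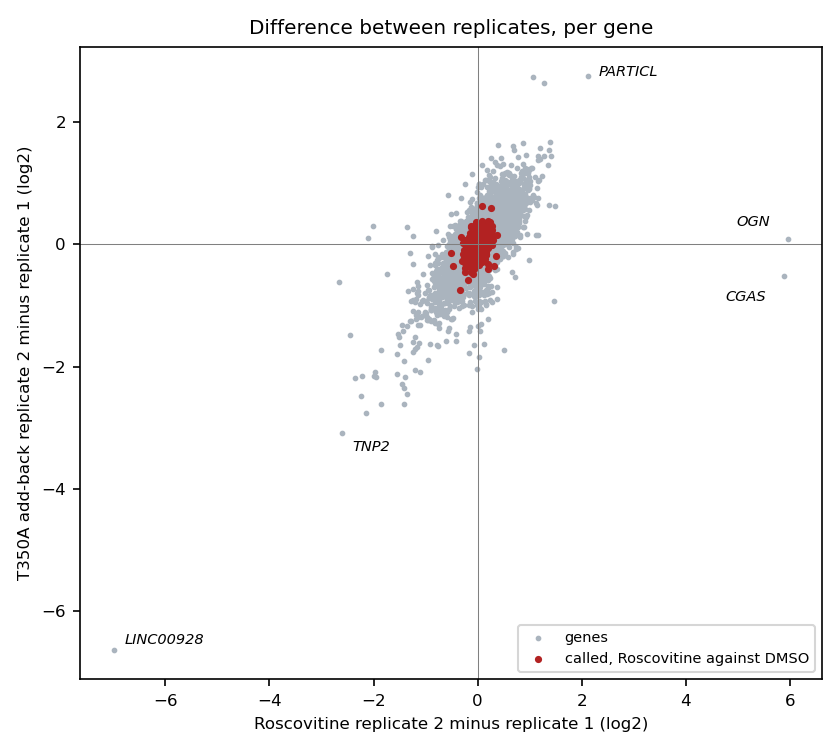
Each point is a gene (mean signal of at least 100), with the difference between replicate 2 and replicate 1 of the Roscovitine group on the x axis and of the T350A add-back on the y axis (log2). Most points follow a rising line (r = 0.702), OGN and CGAS lie at the right on their own, and the genes called between Roscovitine and DMSO (red) lie near the centre.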

How the data were processed

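RNA of LNCaP cells was hybridised to Affymetrix arrays, 1 array per sample, in 7 groups of 2 arrays. The deposited table holds linear intensity values of 54613 probe sets as summarized by the authors. How they were summarized and scaled is not given in the sources used. Array medians of the 4 arrays compared ran from 111 to 112 and 32.8% to 33.6% of their probe sets read under 50, and both the number of arrays and dim signals limit the precision. Platform annotation gave 1 symbol to 41091 probe sets (41037 updated through RefSeq by gene identifier, 54 kept as given), several to 1801 and none to 11721. Each gene was read by its brightest probe set on average over the 14 arrays.

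Values were used as log2(signal + 16), so fold changes of dim genes are understated. One limma 3.58.1 model (R 4.3.3; lmFit, contrasts.fit, eBayes) of 7 group means over 14 arrays had 7 residual and 2.10 prior degrees of freedom, and p-values were adjusted over 19775 genes by Benjamini-Hochberg. The steps were tested on simulated data. Lists (44) were described by counts and medians, with no set test. Genes named were EZH2 and the kinases CDK1, CDK2, CDK5, CDK7 and CDK9, the 12 largest called rises and falls whose arrays did not overlap, up to 4 members per list described and any called member where 5 or fewer were called, the 8 largest differences each way between the Roscovitine replicates, and the 6 of the largest rises and falls that differed most each way from TSA. Genes outside this rule are said to be so or are markers. The comparison, the lists and the rules were chosen with earlier results of these data known. Alternatives were other scalings, pseudocounts of 1 and 64, a signal filter, averaged or separate probe sets, fewer arrays, a replicate block, other priors and array weights. Promoter windows and gene spans came from RefSeq tables of GRCh38.p14, figures from matplotlib 3.10.9.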

Additional observations from a re-analysis of the deposited data

Results flagged for a closer look

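Probe sets that carry no gene symbol or several were outside the comparison of genes. Among these 13522 probe sets, 2 were called between Roscovitine and DMSO in a limma fit of their own, 1 higher and 1 lower, which is why they are listed here. Probe set 208760_at read 996 and 1091 with Roscovitine, against 421 and 455 with DMSO (1.22 ± 0.10 on the log2 scale, adjusted p = 0.00510). Probe set 209913_x_at read 87.0 and 80.7 with Roscovitine, against 169 and 156 with DMSO (-0.84 ± 0.09, adjusted p = 0.0434).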

How the results depend on the processing

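The number of genes called between Roscovitine and DMSO (549) was 936 among genes with a mean signal of at least 100, 942 with an intensity trend and robust prior, 312 with the probe sets of a gene averaged, 125 with both deviating arrays left out, 1 with the 6 drug experiment arrays and 0 with the 4 arrays compared, where few arrays remain to estimate the spread. Leaving out each array in turn gave 21 to 749. With a replicate block 466 genes were called. The replicate 2 minus replicate 1 differences correlated above 0.1 in 3 of 21 pairs of groups. These pairs were Roscovitine with the T350A add-back (r = 0.702), Roscovitine with DMSO (r = 0.28) and DMSO with the T350A add-back (r = 0.24). The replicate numbers were therefore not taken as a pairing. Between Roscovitine and TSA the count (8514) was 15939 with every probe set as a feature, out of 41091, and 7284 to 8873 with each array left out. Alternatives for the count of genes past 1 between the Roscovitine replicates were chosen after seeing the data, and a pseudocount of 64 gave 59 in place of 107. All 70 called genes named in the text kept their direction in 560 values of 8 settings, and 89 of these values did not pass the threshold. These settings keep both groups' arrays or leave out both deviating ones. The kept direction was in part fixed in advance, because the Roscovitine and DMSO arrays of every called gene did not overlap. For such genes another pseudocount, array weights or a left-out Roscovitine array cannot turn the direction. Directions that turned were all of genes that passed in no setting concerned: CDK2 at -0.084 and KLK2 at 0.12 with averaged probe sets, KLK3 at -0.054 with both deviating arrays left out (with single arrays left out it ran from -0.054 to 0.17), KLK3 at -0.040 and TMPRSS2 at -0.044 with a term shared by those arrays, and MYC, which ran from -0.12 to 0.044 with single arrays left out. The cause of these changes was not tested. Of 362 called genes with further probe sets, the median of those had the same sign in 311, against 6301 of 10523 genes in all.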

Other observations

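Motor and kinetochore genes outside the G2 and mitosis list were examined as families chosen after their values were seen. Of 36 kinesin genes that are not in the list 4 fell and 2 rose between Roscovitine and DMSO (11.1% and 5.56%, beside 2.21% and 0.561% of all genes). Without Roscovitine replicate 1 or 2, 3 and 1 fell, and without either DMSO array 0. KIF18A, which sets the length of spindle microtubules, read 167 and 162 with Roscovitine, against 349 and 332 with DMSO (-0.98 ± 0.13, limma adjusted p = 0.00896). KIF14, a kinesin of cytokinesis, read 582 and 648 with Roscovitine, against 1047 and 1035 with DMSO (-0.75 ± 0.08, adjusted p = 0.00372). The neuronal transport motor KIF5C rose and read 584 and 627 with Roscovitine, against 401 and 405 with DMSO (0.57 ± 0.09, adjusted p = 0.0169).

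Of the 4 subunits of the NDC80 complex, which anchors microtubules at the kinetochore, 3 fell (2.21% of all genes fell). These 3 were NDC80, NUF2 and SPC25, which fell by 0.87, by 0.81 and by 0.66 on the log2 scale. Without Roscovitine replicate 1 or 2, 3 and 1 of them fell, and without DMSO replicate 1 or 2, 1 and 0. SPC24 read 710.3 and 699 with Roscovitine, against 961 and 996 with DMSO, and did not pass (adjusted p = 0.242). KNL1, the kinetochore scaffold that binds BUB1, read 413 and 412 with Roscovitine, against 806 and 809 with DMSO (-0.94 ± 0.08, adjusted p = 0.00244). Among 15 centromere protein genes that are not in the list 2 fell and 0 rose (13.3% lower, beside 2.21% of all genes), and 1 fell when any 1 of the 4 arrays compared was left out. The inner kinetochore gene CENPH read 1059 and 889 with Roscovitine, against 1911 and 1935 with DMSO (-0.97 ± 0.09, adjusted p = 0.00295).

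A further 3 genes that fell were chosen after their values were seen, not as a group. JDP2, a repressor of AP-1, read 507 and 512 with Roscovitine, against 992 and 1051 with DMSO (-0.98 ± 0.09, adjusted p = 0.00283), while its second probe set gave 0.05. FN1, the matrix protein fibronectin, read 3729 and 3671 with Roscovitine, against 5416 and 5496 with DMSO (-0.56 ± 0.08, adjusted p = 0.00907). It was the 1 called gene among 16 mesenchymal genes (6.25% lower, beside 2.21% of all genes), and its 6 other probe sets ranged from -0.60 to 0.20. GADD45B, a stress-induced gene, read 112 and 118 with Roscovitine, against 199 and 241 with DMSO (-0.85 ± 0.11, adjusted p = 0.00896). Its 3 other probe sets gave -0.89, 0.06 and 0.18. Of 44 gene lists 20 had no called gene.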
